A study of Mus musculus with 8 samples.

Results

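The genes described are 40 genes of DNA replication and S phase, taken by gene symbol from the deposited table of raw counts, in which all 40 were found among 56748 genes. They were grouped by role into replication origin licensing (10 genes), helicase activation (6), replicative polymerases and primase (7), the sliding clamp and its loader (5), lagging strand and single-stranded DNA (3), nucleotide supply (5), and S-phase transcription and chromatin assembly (4). All 40 passed the filter on low counts that left 14279 genes for testing. Counts under 10 in a library occurred in 2 of them, Orc1 and Cdc6, and only in knockout libraries on the stiff hydrogel.

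RNA was sequenced from mouse primary hepatocytes cultured for 24 h on collagen-coated polyacrylamide hydrogels that were soft (1 kPa) or stiff (20 kPa), stiffnesses chosen to stand for healthy and diseased liver. All mice were C57BL/6J animals carrying floxed alleles of Yap and Taz (Yap fl/fl; Taz fl/fl), the genes for the transcriptional coactivators YAP and TAZ, and were 7 to 8 weeks old. Yap/Taz HepKO mice (called the knockout here) received AAV8-TBG-Cre, and the mice called wild type received AAV8-TBG-Null, so that wild-type cells carried the floxed alleles too. Hepatocytes were taken 10 days later, and each of the 4 combinations of genotype and stiffness had 2 libraries. The TBG promoter drives Cre in hepatocytes, so that other liver cells in a preparation would keep both genes. By the study's methods the floxed mice were also bred to carry a tdTomato reporter that Cre switches on. Knockout cells would then express it, and wild-type cells would not. The labels conflict on sex: the design text gives female and the growth protocol gives male mice. The study's published methods also give male mice. Nothing states how many animals stand behind a library or whether the 2 libraries of a group came from separate animals, so that p-values measure only the spread between these libraries, which may be technical.

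Before a cell can copy its DNA, origin recognition complex proteins, CDC6 and CDT1 load the ring of MCM2 to MCM7 onto origins, a step called licensing. CDC45 and the GINS proteins then turn that ring into the active helicase, polymerases copy both strands with the sliding clamp PCNA, and nucleotide enzymes supply the building blocks. Many of these genes are controlled by E2F transcription factors as cells leave quiescence, and hepatocytes, which are mostly quiescent in the adult liver, re-enter the cycle after loss of liver mass. YAP and TAZ have no DNA-binding domain of their own and act through TEAD factors.

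Because the members moved together, their promoters were searched for E2F-type motifs. RefSeq (GRCm38.p6) gave a window for 33 of the 40 genes, in 38 windows, and no window for Gins1, Gins2, Gins4, Mcm4, Pole, Prim2 and Rfc2. The 250 bases before each start were searched on both strands for TTTCGCGC, TTTGGCGC and GGCGGGAA. Of the 38 windows, 10 (26.3%) held at least one of the 3 motifs, against 2.48% of 32851 windows of the same length over all genes, which were not matched for base composition. Those 10 windows belong to Chaf1a, Mcm5, Mcm6, Orc1, Pola1, Prim1, Rfc3, Rrm1 and Uhrf1, the last with 2 windows. The TEAD-type letters GGAATG were in 13.2% of the members' windows and in 12.6% of all windows. Sequence farther from the start was not searched, so these shares cannot tell which factors act on the members. The sequences below are the window of each of the 4 genes with the largest change between stiff and soft in wild type among those with a motif, and that of Mcm6, added after its values were seen because it holds the most matches (3). Only the first of the 2 windows of Uhrf1 is printed. Each runs 5′ to 3′ on the gene's strand up to the base before the start, and capitals mark the motif matches.
Uhrf1 (chr17:56303087-56303336, plus strand): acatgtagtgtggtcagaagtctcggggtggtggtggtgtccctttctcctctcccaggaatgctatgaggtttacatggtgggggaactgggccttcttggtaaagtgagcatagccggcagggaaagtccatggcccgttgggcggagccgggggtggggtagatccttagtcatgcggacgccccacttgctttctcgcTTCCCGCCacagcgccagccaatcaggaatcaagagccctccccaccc
Chaf1a (chr17:56040166-56040415, plus strand): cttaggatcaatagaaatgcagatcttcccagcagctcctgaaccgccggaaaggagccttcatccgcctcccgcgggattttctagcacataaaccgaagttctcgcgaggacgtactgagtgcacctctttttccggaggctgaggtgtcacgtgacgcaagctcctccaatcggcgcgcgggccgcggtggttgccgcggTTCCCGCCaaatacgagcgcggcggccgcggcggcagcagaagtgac
Mcm5 (chr8:75109259-75109508, plus strand): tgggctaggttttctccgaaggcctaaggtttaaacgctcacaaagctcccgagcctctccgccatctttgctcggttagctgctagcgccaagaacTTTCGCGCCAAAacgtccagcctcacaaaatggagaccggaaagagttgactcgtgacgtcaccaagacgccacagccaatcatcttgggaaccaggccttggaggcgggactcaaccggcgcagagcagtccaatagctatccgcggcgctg
Prim1 (chr10:128014965-128015214, plus strand): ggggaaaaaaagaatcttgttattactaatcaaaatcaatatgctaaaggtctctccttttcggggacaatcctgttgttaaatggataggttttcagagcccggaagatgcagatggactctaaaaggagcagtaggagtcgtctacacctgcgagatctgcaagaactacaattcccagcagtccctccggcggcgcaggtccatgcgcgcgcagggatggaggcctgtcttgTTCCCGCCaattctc
Mcm6 (chr1:128359706-128359955, minus strand): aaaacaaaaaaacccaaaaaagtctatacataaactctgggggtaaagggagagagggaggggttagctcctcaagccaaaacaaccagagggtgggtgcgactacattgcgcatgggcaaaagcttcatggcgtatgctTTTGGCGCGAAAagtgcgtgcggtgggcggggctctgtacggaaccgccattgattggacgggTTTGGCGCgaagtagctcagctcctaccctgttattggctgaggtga

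The windows of Uhrf1, Chaf1a and Prim1 hold GGCGGGAA on the reverse strand (TTCCCGCC as printed), starting 48, 47 and 15 bases before the start. In Mcm5 the letters TTTCGCGC and TTTGGCGC overlap, read from opposite strands, and Mcm6 holds the same overlapping pair and a separate TTTGGCGC 47 bases before the start. The 9 genes with a motif had log2 fold changes (wild type, stiff over soft) between 0.71 and 2.19, with a median of 1.52, and the 24 with a window and no motif ranged between 0.59 and 2.22, with a median of 1.14. Those ranges overlap almost entirely, and the presence of these letters is a description of the sequence, not of binding.

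Library totals ran between 18324083 and 26442310 counts. Levels are normalized CPM, counts scaled by edgeR's cpm function to the reads of a library on tested genes after TMM scaling, and a count of 0 allowed up to between 0.113 and 0.164 CPM, which covers counting error only. Genes were called by the study's thresholds, here applied to edgeR's quasi-likelihood test: adjusted p under 0.05 with a log2 fold change beyond ±0.5. The deleted genes were lower in the knockout on both hydrogels: Yap1 fell by 1.68 ± 0.064 (SE) on soft and by 2.21 ± 0.065 on stiff on the log2 scale, and Wwtr1, the gene for TAZ, fell by 1.37 ± 0.078 and 2.13 ± 0.079. Reads of both remained, at 30.5 and 29.9 CPM for Yap1 in the knockout on soft and stiff (n = 2 libraries each). The deposited counts cover whole genes, not the floxed exons alone.

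In wild-type hepatocytes the stiff hydrogel went with higher levels of the replication genes. All 40 had a positive log2 fold change, 38 were called higher and none was called lower, against 10.0% of all tested genes called higher and 9.26% called lower. The median log2 fold change of the 40 was 1.22, and that of all tested genes was -0.0090. For 29 of the 40 the log2 fold change was over 1, against 4.90% of all tested genes. Both stiff libraries lay above both soft libraries for 40 of 40 genes, against 34.0% of all tested genes. The remaining genes were Rfc2, a clamp loader subunit, at 0.38 ± 0.076 (SE, adjusted p = 0.000474), and Gins4, a GINS subunit, at 0.48 ± 0.094 (SE, adjusted p = 0.000429). Both passed the adjusted p and stayed under the fold threshold, and Gins4 passed both thresholds without wild-type soft replicate 1 (log2 fold change 0.57, adjusted p = 0.000748, edgeR). In bulk RNA, a larger share of cells in S phase and more transcript in each cell cannot be told apart.

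Summed over the 40 genes, the wild-type libraries held 509 and 507 CPM on soft and 1225 and 1202 CPM on stiff hydrogels, and the knockout libraries held 431 and 436 CPM on soft and 431 and 441 CPM on stiff hydrogels. The group means were 508 ± 1.02, 1214 ± 16.4, 433.5 ± 3.41 and 436.1 ± 7.05 CPM (SD, n = 2). Stiffness thus went with a 2.39-fold higher sum in wild type and a ratio of 1.01 in the knockout. The wild-type stiff libraries stood alone, and the other 6 libraries lay between 431.1 and 509 CPM.

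**Figure D1:**
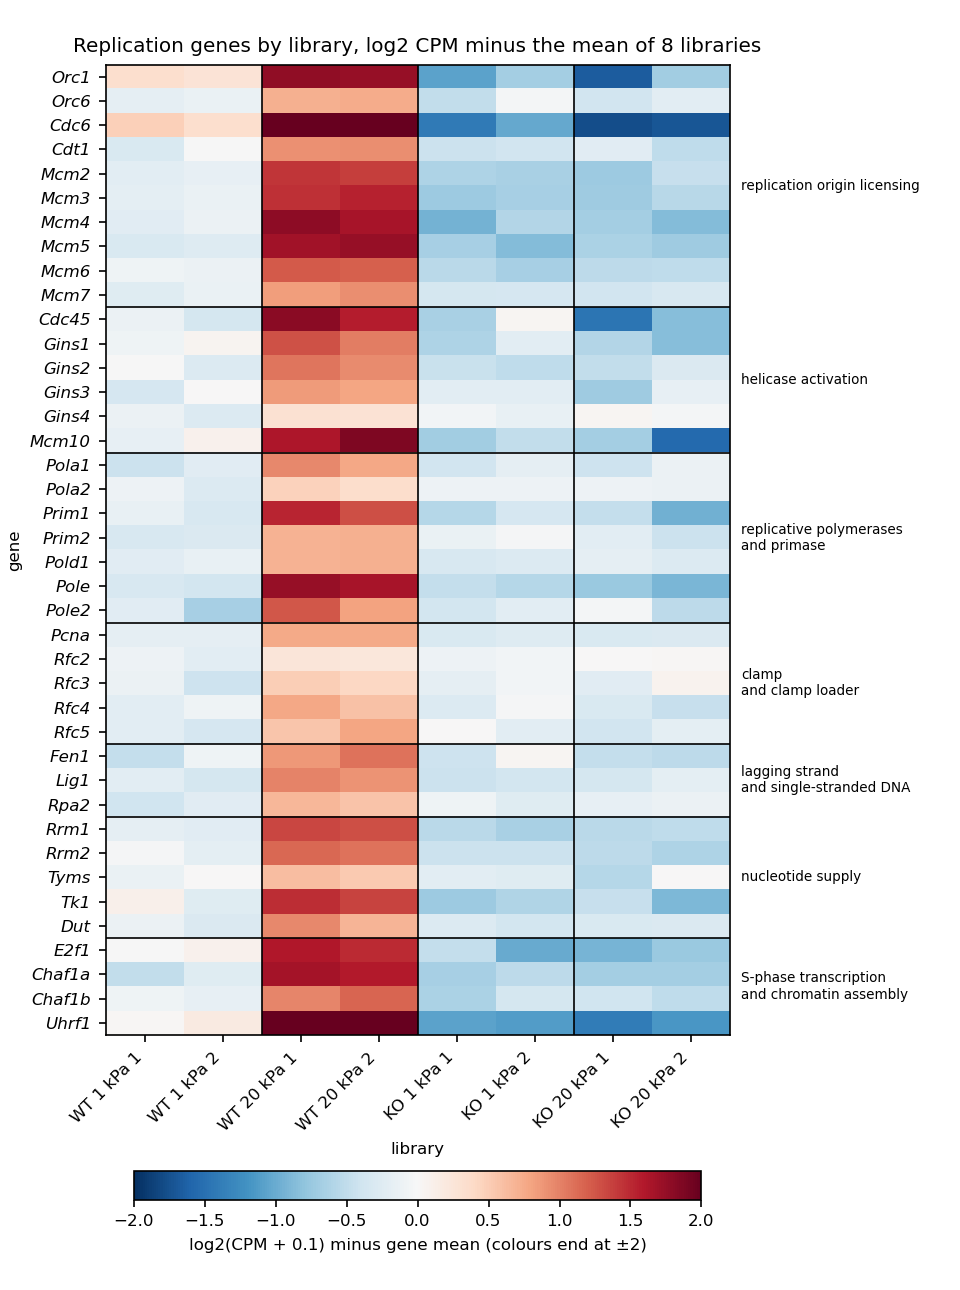
Heatmap of the 40 replication genes (rows, grouped by role) in the 8 libraries (columns); colour is log2(CPM + 0.1) minus the gene's mean over the 8 libraries, with colours ending at ±2. The 2 wild-type libraries on the stiff (20 kPa) hydrogel are the highest of the 8 for every gene, and the most negative values include those of Cdc6, Orc1, Cdc45 and Mcm10 in knockout libraries.

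**Figure D2:**
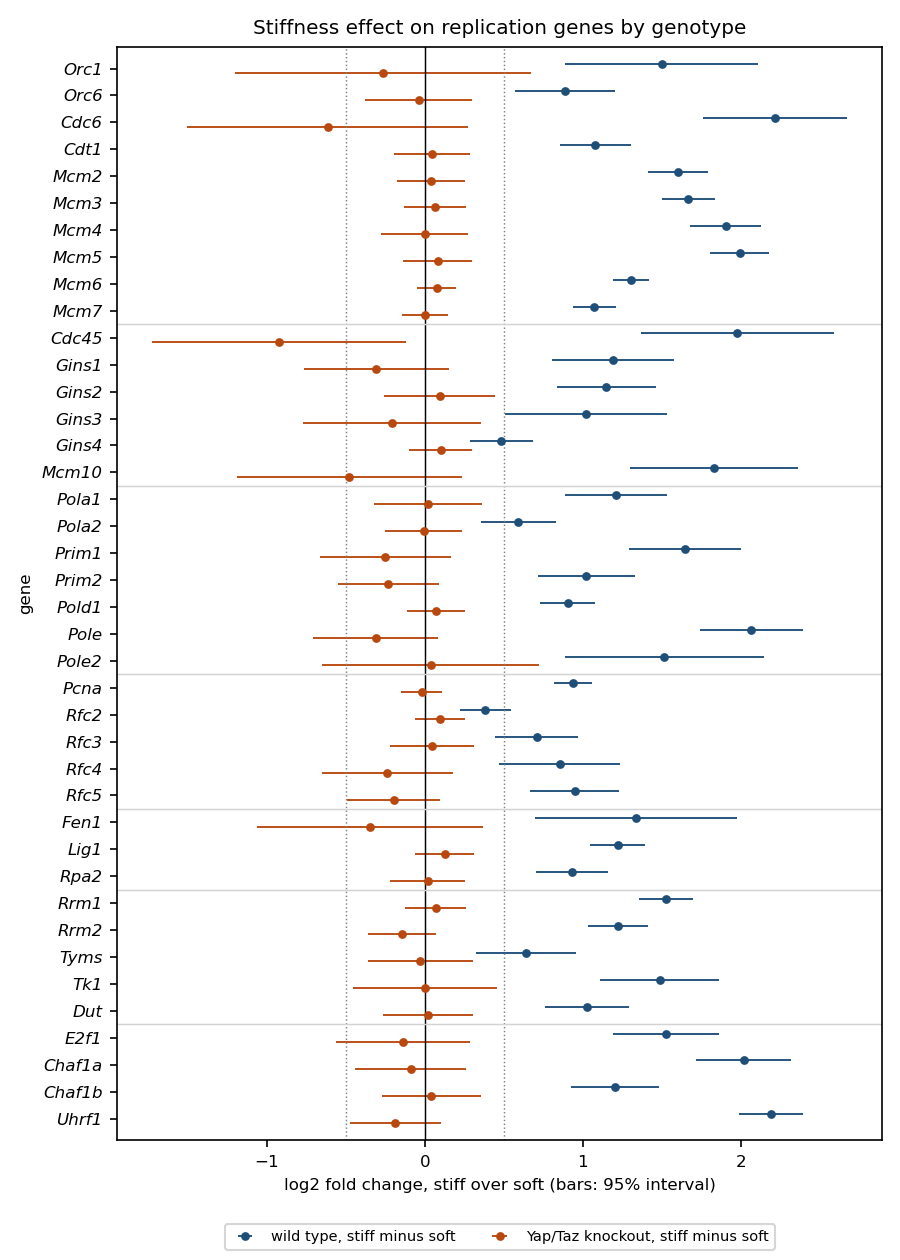
Log2 fold change between stiff and soft hydrogels (x axis) for each gene (y axis), in wild type (blue) and in the Yap/Taz knockout (orange), with bars giving the 95% interval and dotted lines at the fold threshold of ±0.5. Wild-type points run from 0.38 (Rfc2) to 2.22 (Cdc6), and knockout points run from -0.92 (Cdc45) to 0.13 (Lig1).

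Licensing genes rose together. The 10 genes summed to 196 and 204 CPM on soft and 538 and 539 CPM on stiff hydrogels in wild type, and to 149.9 and 151 CPM on soft and 153 and 156 CPM on stiff hydrogels in the knockout. All 10 were called higher on stiff in wild type, with a median log2 fold change of 1.55. Beside this count and those of the other roles stands the 10.0% of all tested genes called higher. The largest change of the 40 genes was that of Cdc6 (chr11:98798627-98814766, ENSMUSG00000017499), which loads the MCM ring; positions are those of the deposited table and were not those of the GRCm38 annotation compared with them. Cdc6 was measured at 2.16 and 1.94 CPM in the wild-type libraries on soft and 10.6 and 8.64 CPM on stiff hydrogels, and at 0.507 and 0.696 CPM on soft and 0.375 and 0.395 CPM on stiff hydrogels in the knockout. Its wild-type stiff libraries were the highest and its 4 knockout libraries the lowest, without overlap. The log2 fold change in wild type was 2.22 ± 0.22 (SE, adjusted p = 1.62e-07) in edgeR's test, a 4.65-fold difference.

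The MCM ring subunits differed in the size of the change. Wild-type libraries held 14.7 and 15.2 CPM of Mcm5 on soft and 58.05 and 60.7 CPM on stiff hydrogels, and knockout libraries held 11.4 and 9.85 CPM on soft and 11.6 and 11.02 CPM on stiff hydrogels. Mcm5 had a log2 fold change (stiff over soft, wild type) of 1.99 ± 0.089 (SE, adjusted p = 3.13e-12), the largest of the 6 subunits by edgeR. For Mcm4 the soft and stiff libraries read 14.1 and 15.2 CPM and 57.3 and 52.2 CPM in wild type, and 8.55 and 11.04 CPM and 10.3 and 9.04 CPM in the knockout. Mcm4 followed with a log2 fold change of 1.904 ± 0.11 (SE, adjusted p = 7.9e-11) in edgeR's test, and Mcm3 and Mcm2 with 1.67 and 1.605. Every knockout library was below every wild-type library in each of the 6 subunits. The share of all tested genes with such an order over the 8 libraries was not computed, here or for other genes. Both knockout libraries lay below both wild-type libraries for 28.6% of all tested genes on soft and 36.8% on stiff. Mcm6 was measured at 65.4 and 64.04 CPM in the wild-type libraries on soft and 162 and 159 CPM on stiff hydrogels, and at 47.6 and 43.7 CPM on soft and 48.2 and 48.3 CPM on stiff hydrogels in the knockout. Mcm6 (chr1:128259327-128287401, ENSMUSG00000026355) had a log2 fold change of 1.31 ± 0.054 (SE, adjusted p = 1.24e-12, edgeR). Per kb of the deposited gene length, Mcm6 and Pcna had the highest mean levels of the 40 genes in wild type on stiff, 34.3 and 33.7 CPM per kb. Their order depends on that length, which need not be the length of the transcript in these cells. Wild-type libraries held 36.3 and 38.8 CPM of Mcm7 on soft and 75.9 and 81.8 CPM on stiff hydrogels, and knockout libraries held 33.3 and 33.7 CPM on soft and 32.8 and 34.3 CPM on stiff hydrogels. Mcm7 gave the smallest change of the ring, 1.07 ± 0.065 (SE, adjusted p = 2.08e-10) by edgeR. In all 6 subunits the wild-type stiff libraries stood above the other 6 libraries.

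Among the other licensing genes, Orc1, the regulated subunit of the origin recognition complex, had few counts. For Orc1 the soft and stiff libraries read 1.62 and 1.55 CPM and 4.53 and 4.47 CPM in wild type, and 0.546 and 0.746 CPM and 0.328 and 0.741 CPM in the knockout. On stiff hydrogels its wild-type libraries were the highest, and on both hydrogels its knockout libraries were below every wild-type library. Its log2 fold change in wild type was 1.499 ± 0.29 (SE, adjusted p = 0.000421), with counts of 28 to 94 in the wild-type libraries (edgeR). Cdt1 was measured at 15.98 and 19.7 CPM in the wild-type libraries on soft and 37.3 and 37.5 CPM on stiff hydrogels, and at 14.6 and 15.1 CPM on soft and 16.8 and 13.9 CPM on stiff hydrogels in the knockout. Cdt1, which brings the MCM ring to origins with CDC6, had a log2 fold change of 1.08 ± 0.11 (SE, adjusted p = 1.78e-07, edgeR). Wild-type libraries held 7.55 and 7.83 CPM of Orc6 on soft and 14.1 and 14.4 CPM on stiff hydrogels, and knockout libraries held 6.05 and 8.31 CPM on soft and 6.51 and 7.36 CPM on stiff hydrogels. For Orc6, another origin recognition subunit, the log2 fold change was 0.89 ± 0.15 (SE, adjusted p = 0.000111), the smallest of the licensing genes (edgeR).

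All 6 helicase activation genes rose in wild type, 5 of them called, and Gins4 stayed under the fold threshold. The 6 genes summed to 34.3 and 32.6 CPM on soft and 66.4 and 63.7 CPM on stiff hydrogels in wild type, and to 31.3 and 31.5 CPM on soft and 31.2 and 31.1 CPM on stiff hydrogels in the knockout. Cdc45, a helicase subunit with MCM and GINS, had the most negative interaction of the 40, -2.901 on the log2 scale (knockout effect minus wild-type effect). For Cdc45 the soft and stiff libraries read 1.46 and 1.22 CPM and 5.79 and 4.93 CPM in wild type, and 0.976 and 1.64 CPM and 0.515 and 0.84 CPM in the knockout. Its log2 fold change in wild type was 1.98 ± 0.29 (SE, adjusted p = 2.27e-05) in edgeR's test, and both wild-type stiff libraries were above the rest. The span of Cdc45 overlaps that of Ufd1 on the other strand, though the longest annotated transcript of Cdc45 shares 0 windows of 64 bases with other genes. Reads from where the 2 spans overlap cannot be told apart if counting ignored strand. Mcm10 was measured at 1.85 and 2.22 CPM in the wild-type libraries on soft and 6.56 and 7.82 CPM on stiff hydrogels, and at 1.25 and 1.44 CPM on soft and 1.26 and 0.642 CPM on stiff hydrogels in the knockout. Mcm10, a scaffold needed to start the helicase, had a log2 fold change of 1.83 ± 0.25 (SE, adjusted p = 1.08e-05, edgeR). Its 2 knockout libraries on the stiff hydrogel were spread widely, and every knockout library was below every wild-type library.

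The GINS subunits did not move evenly. Wild-type libraries held 4.08 and 4.499 CPM of Gins1 on soft and 10.6 and 8.94 CPM on stiff hydrogels, and knockout libraries held 2.81 and 3.73 CPM on soft and 2.86 and 2.37 CPM on stiff hydrogels. Gins1 had a log2 fold change of 1.19 ± 0.18 (SE, adjusted p = 3.84e-05) in edgeR's test, Gins2 of 1.15 and Gins3 of 1.02. For Gins4 the soft and stiff libraries read 18.2 and 16.4 CPM and 24.4 and 24.3 CPM in wild type, and 19.2 and 17.8 CPM and 20.3 and 19.4 CPM in the knockout. The stiff wild-type libraries of Gins4 were above its other 6, and its log2 fold change was smaller than that of any other member but Rfc2. Reads of Gins2 may be shared with Gse1, which overlaps it on the other strand and holds 70.2% of its 64-base windows.

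Polymerase and primase genes rose in wild type, 7 of 7 called. The 7 genes summed to 53.9 and 53.5 CPM on soft and 120.4 and 113 CPM on stiff hydrogels in wild type, and to 51.9 and 54.6 CPM on soft and 53.2 and 50.4 CPM on stiff hydrogels in the knockout. Pole (chr5:110434172-110485340, ENSMUSG00000007080), the catalytic subunit of the leading-strand polymerase, led them. Pole was measured at 3.85 and 3.72 CPM in the wild-type libraries on soft and 16.4 and 15.4 CPM on stiff hydrogels, and at 3.43 and 3.23 CPM on soft and 2.86 and 2.52 CPM on stiff hydrogels in the knockout. Pole had a log2 fold change of 2.07 ± 0.15 (SE, adjusted p = 4.03e-09, edgeR), and its 4 knockout libraries were below all 4 wild-type libraries. Its accessory subunit Pole2 had few counts. Wild-type libraries held 1.46 and 1.05 CPM of Pole2 on soft and 4.24 and 3.099 CPM on stiff hydrogels, and knockout libraries held 1.33 and 1.49 CPM on soft and 1.69 and 1.19 CPM on stiff hydrogels. The wild-type soft and stiff libraries of Pole2 did not overlap, and the log2 fold change was 1.52 ± 0.299 (SE, adjusted p = 0.000487, edgeR).

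Within the polymerase alpha and primase complex, which makes the RNA-DNA primers, the changes ran from 0.59 for Pola2 to 1.65 for Prim1, the primase catalytic subunit. For Prim1 the soft and stiff libraries read 5.35 and 4.72 CPM and 17.2 and 14.6 CPM in wild type, and 3.98 and 4.67 CPM and 4.21 and 3.01 CPM in the knockout. The log2 fold change of Prim1 was 1.65 ± 0.17 (SE, adjusted p = 2.7e-07) by edgeR. Pola2 was measured at 12.1 and 10.7 CPM in the wild-type libraries on soft and 17.98 and 16.6 CPM on stiff hydrogels, and at 12.2 and 12.1 CPM on soft and 12.1 and 12.1 CPM on stiff hydrogels in the knockout. Pola2, the regulatory subunit of polymerase alpha, had a log2 fold change of 0.59 ± 0.11 (SE, adjusted p = 0.000343, edgeR), and its 6 libraries outside the wild-type stiff group lay between 10.7 and 12.2 CPM. Pola1, the catalytic subunit of polymerase alpha, had a log2 fold change of 1.21 ± 0.15 (SE, adjusted p = 3.94e-06) and Prim2, the larger primase subunit, of 1.02 ± 0.14 (SE, adjusted p = 1.6e-05) in edgeR's test. Wild-type libraries held 19.4 and 20.6 CPM of Pold1 on soft and 37.2 and 37.5 CPM on stiff hydrogels, and knockout libraries held 18.3 and 18.9 CPM on soft and 20.1 and 18.97 CPM on stiff hydrogels. Pold1, the catalytic subunit of the lagging-strand polymerase, had a log2 fold change of 0.904 ± 0.083 (SE, adjusted p = 7.1e-08, edgeR).

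The clamp and clamp loader had the smallest median of the 7 roles, with a median log2 fold change of 0.85 in wild type and 4 of 5 genes called. The 5 genes summed to 95.98 and 90.9 CPM on soft and 159 and 159.5 CPM on stiff hydrogels in wild type, and to 93.1 and 95.9 CPM on soft and 92.3 and 96.7 CPM on stiff hydrogels in the knockout. Pcna was measured at 42.4 and 41.99 CPM in the wild-type libraries on soft and 80.8 and 81.1 CPM on stiff hydrogels, and at 38.7 and 40.1 CPM on soft and 38.5 and 39.2 CPM on stiff hydrogels in the knockout. Pcna (chr2:132091082-132095234, ENSMUSG00000027342), the sliding clamp itself, had a log2 fold change of 0.94 ± 0.058 (SE, adjusted p = 2.76e-10, edgeR), and its 6 other libraries lay between 38.6 and 42.4 CPM. Part of the reads of Pcna may come from the copy Pcna-ps2, which holds 27.3% of its 64-base windows. For Rfc2 the soft and stiff libraries read 27.7 and 25.8 CPM and 35.2 and 34.8 CPM in wild type, and 27.7 and 28.6 CPM and 29.9 and 30.1 CPM in the knockout. Rfc2 had the smallest change of the 40. The other loader subunits had log2 fold changes of 0.71 (Rfc3), 0.85 (Rfc4) and 0.95 (Rfc5), with SE between 0.12 and 0.18.

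Lagging strand genes rose, 3 of 3 called. The 3 genes summed to 36.3 and 35.8 CPM on soft and 81.4 and 77.1 CPM on stiff hydrogels in wild type, and to 35.6 and 35.5 CPM on soft and 35.8 and 38.9 CPM on stiff hydrogels in the knockout. Wild-type libraries held 24.03 and 21.7 CPM of Lig1 on soft and 55.2 and 51.9 CPM on stiff hydrogels, and knockout libraries held 20.6 and 21.4 CPM on soft and 21.6 and 24.3 CPM on stiff hydrogels. Lig1, the ligase that joins Okazaki fragments, had a log2 fold change of 1.22 ± 0.083 (SE, adjusted p = 1e-09, edgeR). Rpa2 was measured at 11.2 and 12.6 CPM in the wild-type libraries on soft and 23.3 and 21.9 CPM on stiff hydrogels, and at 13.9 and 12.4 CPM on soft and 13.2 and 13.6 CPM on stiff hydrogels in the knockout. Rpa2, a subunit of the single-stranded DNA-binding protein, had a log2 fold change of 0.93 ± 0.11 (SE, adjusted p = 1.6e-06, edgeR). For Fen1 the soft and stiff libraries read 1.08 and 1.44 CPM and 2.89 and 3.404 CPM in wild type, and 1.13 and 1.59 CPM and 1.08 and 1.04 CPM in the knockout. Fen1, the flap nuclease that trims fragments, had a log2 fold change of 1.34 ± 0.303 (SE, adjusted p = 0.00165, edgeR), with the wild-type stiff libraries above the rest. Its value is uncertain, since 80% of its 64-base windows also occur in Gm10143 and it overlaps Tmem258 on the other strand.

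Nucleotide supply genes rose, 5 of 5 called. The 5 genes summed to 62.2 and 58.4 CPM on soft and 147 and 138 CPM on stiff hydrogels in wild type, and to 49.8 and 48.1 CPM on soft and 47.1 and 49.5 CPM on stiff hydrogels in the knockout. The ribonucleotide reductase subunits Rrm1 and Rrm2 make deoxynucleotides. Rrm1 was measured at 18.8 and 18.2 CPM in the wild-type libraries on soft and 54.1 and 52.5 CPM on stiff hydrogels, and at 14.6 and 13.5 CPM on soft and 14.7 and 14.97 CPM on stiff hydrogels in the knockout. Rrm1 had a log2 fold change of 1.52 ± 0.081 (SE, adjusted p = 3.54e-11, edgeR). Wild-type libraries held 18.5 and 16.5 CPM of Rrm2 on soft and 41.9 and 40.1 CPM on stiff hydrogels, and knockout libraries held 14.01 and 13.98 CPM on soft and 13.1 and 12.2 CPM on stiff hydrogels. Rrm2, the S-phase subunit, had a log2 fold change of 1.22 ± 0.09 (SE, adjusted p = 3.43e-09, edgeR). For Tk1 the soft and stiff libraries read 4.85 and 3.78 CPM and 12.8 and 11.7 CPM in wild type, and 2.69 and 2.93 CPM and 3.23 and 2.37 CPM in the knockout. In both subunits and in Tk1, the cytosolic thymidine kinase, every knockout library was below every wild-type library. Tk1 had a log2 fold change of 1.49 ± 0.18 (SE, adjusted p = 2.05e-06) by edgeR, Dut, which removes dUTP, of 1.02, and Tyms, which makes thymidylate, of 0.64, the smallest of the group.

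S-phase transcription and chromatin assembly genes had the largest median log2 fold change of the 7 roles, 1.77, and 4 of 4 genes called. They summed to 30.5 and 32.7 CPM on soft and 113 and 112 CPM on stiff hydrogels in wild type, and to 19.4 and 19.7 CPM on soft and 18.2 and 18.9 CPM on stiff hydrogels in the knockout. Uhrf1 was measured at 11.6 and 13 CPM in the wild-type libraries on soft and 56.6 and 55.4 CPM on stiff hydrogels, and at 5.39 and 5.22 CPM on soft and 4.31 and 5.04 CPM on stiff hydrogels in the knockout. Uhrf1 (chr17:56610321-56630486, ENSMUSG00000001228), which brings the maintenance DNA methyltransferase to new DNA, had a log2 fold change of 2.19 ± 0.097 (SE, adjusted p = 2.96e-12, edgeR), a 4.57-fold difference. Its 8 libraries fell into an order of wild type stiff, wild type soft and knockout, without overlap between those levels. Wild-type libraries held 4.62 and 5.498 CPM of Chaf1a on soft and 20.97 and 19.8 CPM on stiff hydrogels, and knockout libraries held 4.098 and 4.53 CPM on soft and 4.03 and 4.05 CPM on stiff hydrogels. Chaf1a, the large subunit of the chromatin assembly factor that places histones behind the fork, had a log2 fold change of 2.02 ± 0.14 (SE, adjusted p = 1.95e-09) and its partner Chaf1b of 1.203 ± 0.13 (SE, adjusted p = 7.69e-07) in edgeR's test. For E2f1 the soft and stiff libraries read 5.7 and 6.05 CPM and 17.5 and 16.3 CPM in wild type, and 4.06 and 2.79 CPM and 2.95 and 3.36 CPM in the knockout. E2f1, a transcription factor known to drive many replication genes, had a log2 fold change of 1.53 ± 0.16 (SE, adjusted p = 3.96e-07, edgeR). In the deposited table Chaf1a ends 231032 bases before Uhrf1 starts, on chromosome 17.

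**Figure D3:**
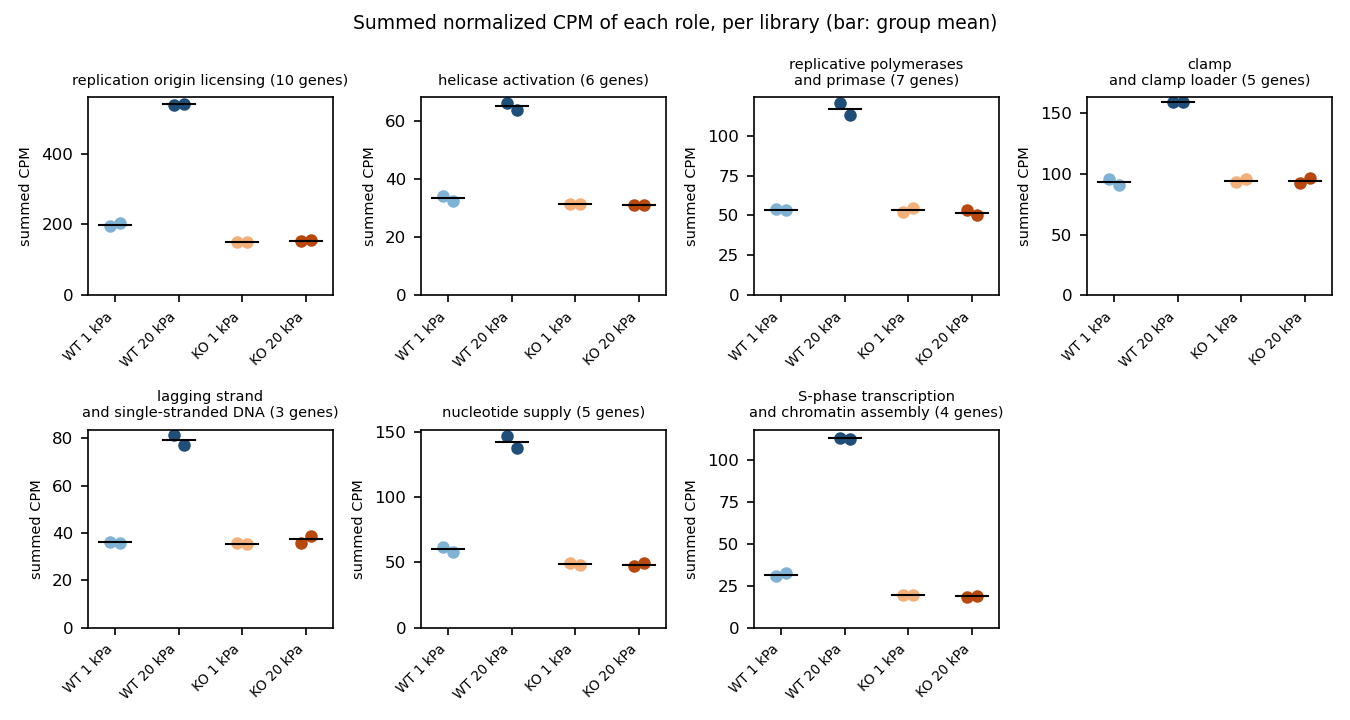
Summed normalized CPM (y axis, from 0) of the genes of each of the 7 roles in each library (points) with the group mean (black bars), for wild type and knockout on 1 kPa and 20 kPa hydrogels. In every panel the wild-type 20 kPa libraries are the highest, from 1.71 times the soft mean for the clamp and its loader to 3.56 times for S-phase transcription and chromatin assembly.

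In the knockout no replication gene was called between stiff and soft hydrogels. By edgeR 0 of 40 were called, and 1 (Cdc45) had an unadjusted p under 0.05, against 1077 of all 14279 tested genes. By DESeq2 0 were called and 0 were at an unadjusted p under 0.05. The share called of all tested genes was also low, 0.0210% in either direction, so that a count of 0 is near the background. The median log2 fold change of the 40 was -0.0040, with 19 positive and 21 negative values. It was -0.063 with 14 positive and 26 negative values without knockout soft replicate 1, and -0.064 with 12 positive and 28 negative values without knockout stiff replicate 2. Stiff libraries lay above soft libraries for 6 genes and below for 9, against 20.9% and 17.2% of all tested genes.

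The intervals limit what could have been missed. For 38 of the 40 genes the upper bound of the 95% interval in the knockout was under 0.5, and Orc1 and Pole2 had upper bounds of 0.68 and 0.73. The whole interval lay within ±0.5 for 27 genes. Cdc45 had the most negative value, -0.92 ± 0.38 (SE, adjusted p = 0.617, edgeR), from counts of 11 and 17 on stiff and 25 and 33 on soft hydrogels. Cdc6 was at -0.61 ± 0.42 (SE, adjusted p = 0.738) from counts of 8 and 8 on stiff and 13 and 14 on soft hydrogels, and Lig1 had the highest value, 0.13 ± 0.088 (SE, adjusted p = 0.741), in edgeR's test.

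The difference between the genotypes in their response was tested as an interaction, the knockout effect minus the wild-type effect. It was negative for 40 of 40 genes and called for 38, against 8.21% of all tested genes called in that direction, with a median of -1.24. Values ran from -2.901 ± 0.48 (SE, adjusted p = 0.000139) for Cdc45 to -0.29 ± 0.11 (SE, adjusted p = 0.0505) for Rfc2 in edgeR's test. Cdc6 gave -2.83 ± 0.48 (SE, adjusted p = 0.000172), Uhrf1 -2.38 ± 0.17 (SE, adjusted p = 4.84e-09), Pole -2.38 ± 0.24 (SE, adjusted p = 5.12e-07) and Mcm10 -2.31 ± 0.42 (SE, adjusted p = 0.000394) by edgeR. The genes with no call were Rfc2 and Gins4, the latter at -0.38 ± 0.13 (SE, adjusted p = 0.0381) and under the fold threshold. Calls of Orc1, Gins3, Pole2, Fen1 and Tyms rested on single libraries. Orc1 lost its call without knockout stiff replicate 1 (-1.28, adjusted p = 0.101) or knockout soft replicate 2 (-1.55, adjusted p = 0.0879), Gins3 without knockout stiff replicate 1 (-0.97, adjusted p = 0.0693) or wild-type soft replicate 1 (-1.06, adjusted p = 0.056), and Fen1 without knockout soft replicate 2 (-1.44, adjusted p = 0.0508), all by edgeR. Pole2 lost it without any of knockout stiff replicate 2, knockout soft replicate 2, wild-type stiff replicate 1 or wild-type soft replicate 2 (-1.40 to -1.25, adjusted p = 0.0552 to 0.088). Tyms lost it without any of 5 libraries, and its value without knockout stiff replicate 1 was -0.41 (adjusted p = 0.148, edgeR). With DESeq2, 34 of the 40 were called, and the share of all tested genes was not computed for that tool.

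On the soft hydrogel fewer replication genes were called between the genotypes. Called lower in the knockout were 8 of 40, against 4.65% of all tested genes, none was called higher, against 2.02%, and the median log2 fold change was -0.17. Both knockout libraries lay below both wild-type libraries for 25 genes, against 28.6% of all tested genes, and above them for 2, against 27.6%. The 8 genes were Cdc6 at -1.79 ± 0.31 (SE, adjusted p = 0.000319), Orc1 at -1.31 ± 0.37 (SE, adjusted p = 0.0173), Uhrf1 at -1.21 ± 0.12 (SE, adjusted p = 5.41e-07), E2f1 at -0.76 ± 0.18 (SE, adjusted p = 0.0065), Tk1 at -0.64 ± 0.204 (SE, adjusted p = 0.0372), Mcm4 at -0.59 ± 0.12 (SE, adjusted p = 0.00185), Mcm3 at -0.54 ± 0.09 (SE, adjusted p = 0.000257) and Mcm6 at -0.50 ± 0.057 (SE, adjusted p = 3.47e-06), all by edgeR, the last barely past the fold threshold. Of these, 5 are licensing genes. Mcm2 (-0.44), Mcm5 (-0.48), Rrm1 (-0.39) and Rrm2 (-0.33) had an adjusted p under 0.05 with a smaller fold. No helicase activation, polymerase and primase, clamp or lagging strand gene was called on soft, and the highest value of the 40 was that of Prim2, 0.23 ± 0.15 (SE, adjusted p = 0.344), by edgeR.

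These calls on soft depended on the libraries and the scaling. DESeq2 and scaling by library size alone each called 5 of the 40, and the shares of all tested genes called were not computed for them. Without knockout soft replicate 2 there were 5 calls and the median was -0.285, with E2f1 at -0.53 (adjusted p = 0.0925) and Mcm6 at -0.445 (adjusted p = 0.000239), under the fold threshold, by edgeR. Orc1 lost its call without knockout soft replicate 1 (-1.09, adjusted p = 0.154) or wild-type soft replicate 1 (-1.28, adjusted p = 0.0759), and Mcm4 without knockout soft replicate 1 (-0.41, adjusted p = 0.066). Mcm6 also fell under the fold threshold without wild-type soft replicate 1 (-0.48) or wild-type stiff replicate 1 (-0.499), and Mcm5 passed it without knockout soft replicate 1 (-0.60) or wild-type soft replicate 1 (-0.503). Tk1 lost its call without either library of any of wild-type stiff or knockout soft, or without wild-type soft replicate 1, with values between -0.70 and -0.43 and adjusted p between 0.0553 and 0.309. Cdc6, Uhrf1 and Mcm3 kept their calls with any 1 library left out, though Mcm3 lost its call with scaling by library size alone.

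On the stiff hydrogel the knockout was lower in all 40 genes. Called lower were 38, against 15.0% of all tested genes, with a median log2 fold change of -1.47, and 32 were called with a value below -1, against 8.05%. Both knockout libraries lay below both wild-type libraries for 40 of 40 genes, against 36.8% of all tested genes. The wild-type stiff libraries enter this comparison, the wild-type stiffness comparison and the interaction alike, so that the 3 counts are not independent. Cdc6 was 24.6-fold lower in the knockout, at -4.62 ± 0.29 (SE, adjusted p = 1.62e-10), and Uhrf1 was 11.99-fold lower, at -3.58 ± 0.11 (SE, adjusted p = 7.93e-15), by edgeR. Orc1 (-3.07), Cdc45 (-2.98) and Mcm10 (-2.897) followed. The smallest differences were those of Rfc2, -0.22 ± 0.075 (SE, adjusted p = 0.0207), and Gins4, -0.29 ± 0.094 (SE, adjusted p = 0.0138), by edgeR, both under the fold threshold. Pola2 fell under that threshold without wild-type stiff replicate 1 (-0.47), and Rfc3 without wild-type stiff replicate 1 (-0.499) or knockout stiff replicate 1 (-0.39).

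Levels per kilobase of the deposited gene length, which need not be the length of the transcript in these cells, allowed the subunits of a complex to be compared with each other. Among MCM2 to MCM7, Mcm2 was the lowest and Mcm6 the highest per kb in all 8 libraries, with Mcm7 the second highest. The ratio of highest to lowest was 4.34 and 4.41 in the wild-type stiff libraries and between 4.83 and 5.81 in the other 6. By the deposited length, transcripts of the 6 ring subunits, which take part in equal numbers in the protein ring, were not at equal levels in any library. In GINS, Gins3 was the lowest and Gins4 the highest per kb in all 8 libraries. The ratio was 10.2 and 10.7 in wild type on stiff and between 12.7 and 26.4 elsewhere. Within replication factor C, Rfc5 was the lowest in all 8 libraries, and Rfc2 was the highest except in wild-type stiff replicate 1, where Rfc3 was. The replication factor C ratio was 1.75 and 1.44 in the wild-type stiff libraries and between 1.98 and 2.80 in the other 6. Polymerase alpha and primase changed order: Pola2 was the highest per kb in 6 libraries and Prim1 in the 2 wild-type stiff libraries. Pola1 was the lowest except in knockout stiff replicate 2, where Prim1 was.

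**Figure D4:**
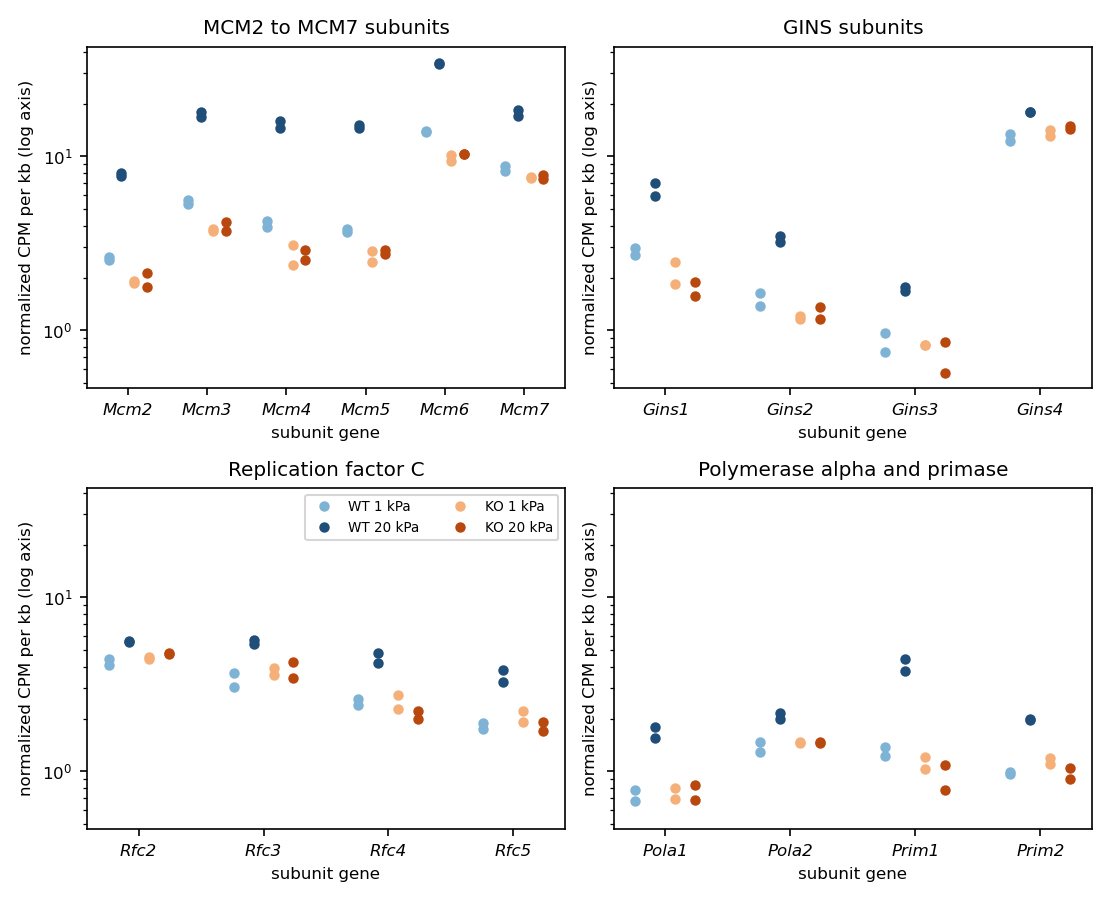
Normalized CPM per kb of gene length (y axis, log scale) of the subunit genes (x axis) of 4 complexes, each point 1 library, with colours for the 4 groups. By the deposited length, Mcm6 and Gins4 are the highest of their complexes and Mcm2 and Gins3 the lowest in each library, and Prim1 passes Pola2 in the wild-type 20 kPa libraries. The places of Mcm2 and Pola2 depend on that length, which is well above that of their longest annotated transcripts.

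Other genes of the same processes, in lists that do not hold the 40, were less uniform. The shares to set beside each list are those of all tested genes in wild type, 10.0% called higher and 9.26% called lower on stiff. Of 36 other replication genes 35 were tested, and in wild type 20 were called higher on stiff and none lower, with values from -0.12 ± 0.11 (SE, adjusted p = 0.432) for Orc4, an origin recognition subunit, to 2.79 ± 0.301 (SE, adjusted p = 5.7e-07) for Clspn, which links the fork to the checkpoint (edgeR). The direction of Orc4 turned to 0.059 without wild-type soft replicate 1. The median of this list was 0.56. Among 12 other E2F and RB family genes, 5 were called higher and none lower, from Rbl2 at -0.44 ± 0.13 (SE, adjusted p = 0.0124) to E2f7, a repressor of the family, at 2.23 ± 0.31 (SE, adjusted p = 1.19e-05, edgeR). Rbl2, a pocket protein of quiescent cells, passed both thresholds only without wild-type stiff replicate 1 (-0.63, adjusted p = 0.00424, edgeR).

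In 16 other nucleotide supply genes, 5 were called higher and 1 lower, with Ctps, the CTP synthase, at 1.17 ± 0.062 (SE, adjusted p = 3.54e-11) and Shmt1, a cytosolic folate enzyme, at -0.56 ± 0.054 (SE, adjusted p = 1.48e-07, edgeR). Of 12 other chromatin replication genes, 5 were called higher and none lower, between Rbbp7, a histone-binding subunit, at 0.13 ± 0.043 (SE, adjusted p = 0.019) and Hells, a chromatin remodeller, at 1.602 ± 0.15 (SE, adjusted p = 9.14e-08, edgeR). Replication checkpoint and repair genes held 12 called higher and 1 lower of 21, with Fancd2, of the crosslink repair pathway, at 2.77 ± 0.56 (SE, adjusted p = 0.000596) and Wee1, the kinase that restrains CDK1, at -1.04 ± 0.064 (SE, adjusted p = 2.76e-10) by edgeR. Fancd2 had few counts, with a mean of 13.5 over the 8 libraries. Wee1 and Shmt1 were the genes called against the direction of their lists. In the knockout, no gene of these 5 lists was called between stiff and soft hydrogels. Of all tested genes 0.0210% were called there in either direction, so that this is near the background.

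Markers of other liver cell types moved between the groups. Of all tested genes, 9.26% were called lower and 10.0% higher on stiff in wild type. In wild type the 10 stellate cell and fibroblast markers summed to 37.1 and 37.6 CPM on soft and 26.8 and 24.9 CPM on stiff, and in the knockout to between 53.0 and 57.5 CPM. Of the 9 that were tested, 4 were called lower and 1, Col1a1, called higher on stiff in wild type. The 8 endothelial markers summed to 60.1 and 54.5 CPM and 39.7 and 39.1 CPM in wild type on soft and stiff, and to between 72.6 and 77.4 CPM in the knockout. Of the 7 that were tested, 3 were called lower and none higher on stiff in wild type. The 8 Kupffer cell and macrophage markers summed to 74.6 and 71.5 CPM on soft and 48.9 and 55.6 CPM on stiff in wild type, with 5 called lower and none higher, and to between 102.1 and 102.9 CPM in the knockout. These sums were lowest in the wild-type stiff libraries, where the replication genes were highest, and their part in the results was not tested.

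Lymphocyte and granulocyte markers summed to between 0.864 and 2.89 CPM, and Cd3e was at 0 in all 8 libraries. The 7 cholangiocyte markers summed to between 548.3 and 602.4 CPM in wild type and between 320.5 and 348.2 CPM in the knockout, with Cftr at 0 in all 8 libraries. Of the 4 tested, 1, Krt19, was called higher on stiff in wild type, against 10.0% of all tested genes. The 8 hepatocyte markers summed to between 90850 and 94900 CPM in wild type and between 63360 and 63970 CPM in the knockout, led by Alb. Of the 8 hepatocyte markers, 2, Hnf4a and Asgr1, were called lower on stiff in wild type, against 9.26% of all tested genes. How far a change in the cells of a library entered the replication genes was not tested.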

How the data were processed

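RNA of primary mouse hepatocytes was sequenced in 8 libraries (paired end, poly-A selected). The authors used HISAT2 (2.0.5 in the submitters' processing notes) for alignment and featureCounts for counting, and deposited unnormalized counts per gene, with its length and position. The notes list mm9, but the deposited positions of 0 of the 40 members were those of the GRCm38 annotation used here, and no text names the annotation. The labels mention both directional (dUTP) and non-directional libraries, and how strand or multiply matching reads entered the counting is not given in the sources used here. Of the members, 10 overlap an expressed gene on the other strand, and 8 share over 10% of 64-base windows with another gene. Those not named beside their values are Orc6 with Vps35, Mcm7 with Cops6 and Gm5487 (25.9%), Rfc4 with Eif4a2, and Rfc5 with Wsb2. The others are Lig1 with Zswim9, Tk1 with Afmid, Chaf1a with Ubxn6 (35.7%), Rfc2 with Lat2 (18.4%), Uhrf1 with Gm5648 (14.1%) and Pole2 with Gm49384 (11.1%). The longest annotated transcripts of Orc6, Cdc45, Rfc4 and Tk1 share no 64-base window with another gene, so for these only the gene spans were seen to overlap.

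Counts were analysed with edgeR 4.0.16 in R 4.3.3 (filterByExpr by group, TMM, glmQLFit with a term per group over all 8 libraries, 4 residual degrees of freedom, glmQLFTest, Benjamini-Hochberg adjustment over 14279 genes). The study used DESeq2, which was run as an alternative (1.42.0). A standard error is the absolute log2 fold change divided by the square root of F. Replicates differed by more than sampling noise (chi-square per degree of freedom 2.62 to 5.45), and the common biological coefficient of variation was 0.0542. Simulated data with 200 changed genes were used to test the steps. Plots used matplotlib 3.10.9 (Python 3.11.15).

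The 40 members and all lists were chosen with earlier results of these data known. The text names every member, the highest and lowest gene (wild type, stiff over soft) of 5 other lists and genes called against the direction of their list, and Yap1 and Wwtr1. Promoter sequences follow the same order of change. Other genes were chosen after their values were seen. Alternatives covered the tool, scaling, filter, fold threshold, replicate number, robust fit, the 4 libraries compared, and each library left out.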

Additional observations from a re-analysis of the deposited data

Results flagged for a closer look

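For 38 of the 40 genes the effect of stiffness differed between wild type and knockout by the interaction test (edgeR, adjusted p under 0.05, absolute difference over 0.5), with a lower value in the knockout each time. The values that follow are the knockout effect minus the wild-type effect on the log2 scale.

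Among licensing genes the differences were Orc1 (-1.76), Orc6 (-0.93), Cdc6 (-2.83), Cdt1 (-1.03), Mcm2 (-1.56), Mcm3 (-1.603), Mcm4 (-1.91), Mcm5 (-1.91), Mcm6 (-1.23) and Mcm7 (-1.07). For helicase activation they were Cdc45 (-2.901), Gins1 (-1.501), Gins2 (-1.05), Gins3 (-1.23) and Mcm10 (-2.31). Polymerase and primase genes gave Pola1 (-1.19), Pola2 (-0.599), Prim1 (-1.898), Prim2 (-1.25), Pold1 (-0.83), Pole (-2.38) and Pole2 (-1.48). Cdc45, Cdc6, Pole and Mcm10 had the most negative values among these roles. The clamp and its loader gave Pcna (-0.96), Rfc3 (-0.66), Rfc4 (-1.09) and Rfc5 (-1.14). Lagging strand genes differed by Fen1 (-1.68), Lig1 (-1.096) and Rpa2 (-0.91). Nucleotide supply genes differed by Rrm1 (-1.45), Rrm2 (-1.36), Tyms (-0.67), Tk1 (-1.49) and Dut (-1.01). For S-phase transcription and chromatin assembly the values were E2f1 (-1.66), Chaf1a (-2.11), Chaf1b (-1.16) and Uhrf1 (-2.38). Groups of 2 libraries are too small for a check of single outlying libraries. All 40 genes share the 8 libraries, so these differences are not independent of each other, and their cause was not tested.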

How the results depend on the processing

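Left-out libraries, scalings, filters and DESeq2 kept the direction of each log2 fold change recomputed gene by gene, which were those of 40 members in wild type, in the interaction and on stiff, 13 on soft and 3 in the knockout. The 13 on soft were the members with an adjusted p under 0.05 by edgeR and the one with the highest value. The 3 in the knockout were those with the lowest values, Cdc45 and Cdc6, and the highest, Lig1. Members near 0 in these 2 comparisons were not recomputed gene by gene, so the kept directions there say little. In the knockout the split of the 40 was 17 positive and 23 negative with DESeq2, upper-quartile scaling or library size only. The count called in wild type (stiff against soft) stayed between 36 and 40, and was 29 with the fold threshold raised to 1; it was 31 to 39 for the interaction, 32 to 40 for the genotypes on stiff, and 0 in the knockout under every alternative. On soft, the 8 calls became 5 with DESeq2, 5 with library size only and 3 with a log2 fold change over 1, and ran from 5 to 8 with each library left out, while the median ran from -0.285 to -0.165. On stiff, the median of knockout against wild type ran from -1.595 to -1.47 with each library left out. Outside the 40, Orc4 in wild type ran from -0.248 to 0.059 with each library left out, a change of sign. No scaling moved the median of all genes by more than 0.068. Shares of all tested genes called were not computed for the alternatives that refit the counts. The groups share replicate numbers, but nothing ties equal numbers to one animal, and the deviations of equally numbered libraries correlated between -0.101 and 0.0424, so the numbers were not taken to pair them. With a replicate block, 38 genes were called in wild type, 38 in the interaction, 8 on soft, 38 on stiff and 0 in the knockout; it moved none of these counts. Depth limits Orc1, Cdc6, Cdc45, Mcm10, Fen1 and Pole2 in the knockout, with counts of 7 to 36. Why calls moved was not tested; with a library left out, its group has 1 library, assumed to vary like the others.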
